A study of Macaca mulatta with 24 samples.

Results

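Heat shock proteins and chaperones were examined in the nucleus accumbens core (NAcc core) of 24 rhesus macaques. The genes were chosen by symbol, as HSPA, HSPB, HSPD, HSPE, HSPH and HSP90 genes, the DNAJA, DNAJB and DNAJC genes, which encode J-domain proteins, the subunits of the cytosolic chaperonin TRiC (CCT2 to CCT8 and TCP1), BAG1 to BAG6, HSF1, HSF2 and PPID. The rule found 88 of the 17208 gene symbols measured. Levels are in TPM, the share of an animal's transcripts scaled to a fixed total and corrected for gene length. Of the 88 genes, 81 averaged 1 TPM or more over the 24 animals and were tested, and 69 averaged 10 TPM or more.

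The study asked how long voluntary ethanol drinking changes RNA levels in this region. The animals were unrelated adult males. Drinkers were induced to drink by a feeding schedule and then had 12 months of open access, 22 h per day, to 4% ethanol and water, and tissue was taken under ketamine and isoflurane without imposed abstinence. Controls underwent the same handling but drank water, with a 10% maltose dextrin solution to match calories. The LD* group joins light and binge drinkers by the study's definition, and all 8 are labelled LD. They drank 1.58 ± 0.53 g/kg per day (SD, n = 8). The HD* group holds 4 heavy drinkers (HD) at 2.92 ± 0.16 g/kg per day and 4 very heavy drinkers (VHD) at 3.37 ± 0.29 g/kg per day (SD, n = 4 each), and 8 animals were controls. The animals came from 4 cohorts, and HD* animals occurred only in cohorts 5 and 7a, with 2 HD and 2 VHD animals in each. LD* animals came from cohorts 4 (2 animals), 7a (3) and 7b (3), and controls from cohorts 5 (3), 7a (2) and 7b (3). Animals are numbered within their group only to name them.

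Chaperones bind proteins that are unfolded or still being made and keep them from aggregating. HSP70 proteins work in cycles of ATP use that J-domain proteins start and that HSP110 and BAG proteins help to end by releasing the nucleotide, HSP90 acts later on selected clients such as kinases and steroid receptors, small HSPs hold unfolded proteins, and the chaperonins fold proteins inside a chamber. The factor HSF1 raises several of these genes when misfolded protein accumulates, and in neurons some J-domain proteins serve the synapse. HSPA1B and HSP90AA1, an inducible HSP70 and an inducible HSP90, were not analysed here.

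The most abundant chaperone RNAs were those of the constitutive cytosolic proteins. HSPA8, the constitutive HSP70, had 1838 ± 357 TPM and HSP90AB1, the constitutive HSP90, 1544 ± 272 TPM (mean ± SD, n = 24 animals). DNAJA1, a J-domain partner of HSP70, followed with 427 ± 104 TPM, HSP90B1, the HSP90 of the endoplasmic reticulum (ER), with 374 ± 90.4 TPM, and the TRiC subunits CCT7, CCT8 and CCT3 with 300.0 ± 43.2, 259 ± 45.9 and 256 ± 17.6 TPM. HSPH1, the HSP110 that exchanges nucleotide on HSP70, was the eighth in order, with 243 ± 105 TPM. Neighbours in this order, apart from the step from HSP90AB1 to DNAJA1, differed by less than the larger of their SDs. Together the 88 genes held between 0.635% and 1.18% of the TPM total of an animal.

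HSPA1A and HSPA6, HSP70 genes known for induction by stress, were far lower than the constitutive HSPA8. HSPA8 lay between 14.1 and 24.02 times as high as HSPA1A in the 24 animals, and HSPA6, made almost only under stress, averaged 4.96 ± 1.04 TPM. HSPA1A and the gene HSPA1B are near-identical, and since the study kept only reads with a unique alignment, the level of HSPA1A is uncertain. The lowest genes tested were HSPB2 at 1.07 ± 0.55 TPM, CCT6B, a TRiC subunit known mainly from testis, at 1.84 ± 0.51 TPM, and HSPB3 at 2.43 ± 1.36 TPM. The 7 genes under 1 TPM on average were DNAJB3, DNAJC5B, DNAJC5G, DNAJC22, HSPB7, HSPB9 and HSPE1-MOB4, the highest of them DNAJB3 at 0.50 ± 0.41 TPM.

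**Figure D1:**
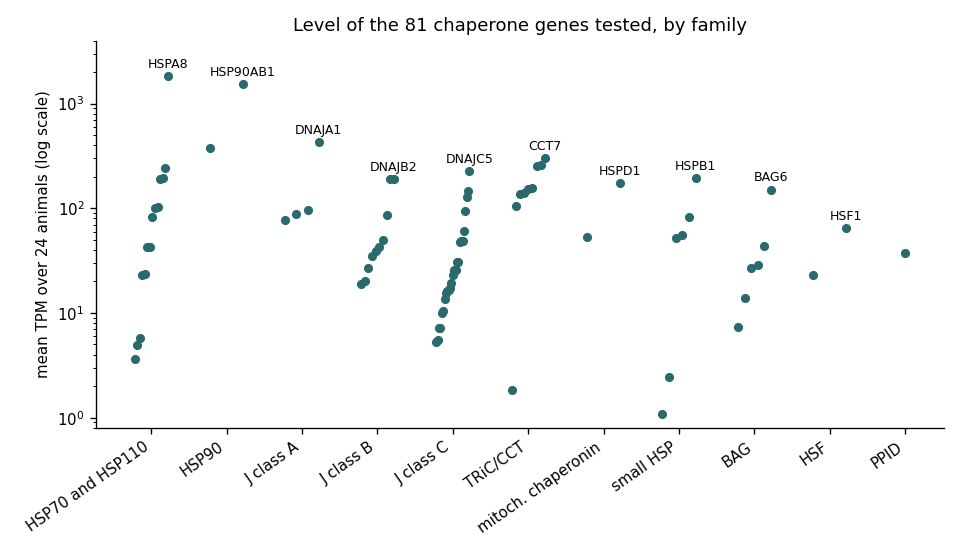
Mean TPM over the 24 animals (log scale) of each of the 81 chaperone genes tested, 1 point per gene, in columns by family, with the highest gene of each family named. HSPA8 (1838 TPM) and HSP90AB1 (1544 TPM) stand highest, and the HSP70, J class C and small HSP columns reach down to a few TPM.

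The genes differed widely in how steady they were between animals. The SD of log2(TPM + 1) over the 24 animals was 0.07 for DNAJC8, a J-domain protein of the spliceosome, 0.10 for CCT3, 0.14 for HSF1 and 0.15 for HSPE1, the co-chaperonin of mitochondria. It was 0.91 for HSPB6, a small HSP of muscle and brain, 0.72 for HSPH1, 0.67 for DNAJC12, 0.65 for HSPB3 and HSPB8, 0.63 for DNAJB13, 0.59 for HSPA4L and 0.56 for HSPA12A. DNAJC8 ran from 112 to 141 TPM, whereas HSPB6 ran from 16.5 to 167 TPM and HSPH1 from 84.1 to 404 TPM. The median of this SD was 0.32 over the 81 genes and also 0.32 over all 13637 genes tested by the same limit.

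Ratios within complexes varied between animals. HSPD1 and HSPE1, the mitochondrial chaperonin and its lid, are neighbours in the RefSeq annotation of the macaque genome. HSPD1 was 3.35 ± 0.60 times as high as HSPE1 (SD, n = 24), from 2.04 times in LD* 5 to 4.38 times in control 1. Among the TRiC subunits other than CCT6B, the highest was 2.94 ± 0.37 times the lowest in the same animal.

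A score for each animal, the mean of centred log2(TPM + 1) over the 81 genes, ran from −0.57 in HD* 8 to 0.21 in LD* 2. HD* 6 (−0.35), control 8 (−0.27) and LD* 5 (−0.27) were the next lowest, so that each group held at least 1 low animal, and the other 20 animals lay between −0.14 and 0.21. Controls had a score of 0.04 ± 0.14, LD* animals of 0.04 ± 0.15 and HD* animals of −0.08 ± 0.26 (SD, n = 8 each), and within HD* it was 0.07 ± 0.05 in HD and −0.23 ± 0.31 in VHD animals (SD, n = 4 each), where 1 VHD animal, HD* 4, had 0.15. The median over all tested genes was low in the same 4 animals, at −0.48, −0.24, −0.19 and −0.20. In these animals the 10 most abundant genes of the table held 5.42% to 6.33% of the total, a share of 5.45% was seen in control 6, and the other 19 animals had 3.53% to 4.89%. HD* 8 had the lowest value of all animals for 51 of the 81 genes (63.0%) and for 43.1% of all tested genes. TPM is a share of a fixed total, and the part of such a shift in the results was not tested beyond alternatives such as rescaled values and fits without these 5 animals.

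**Figure D2:**
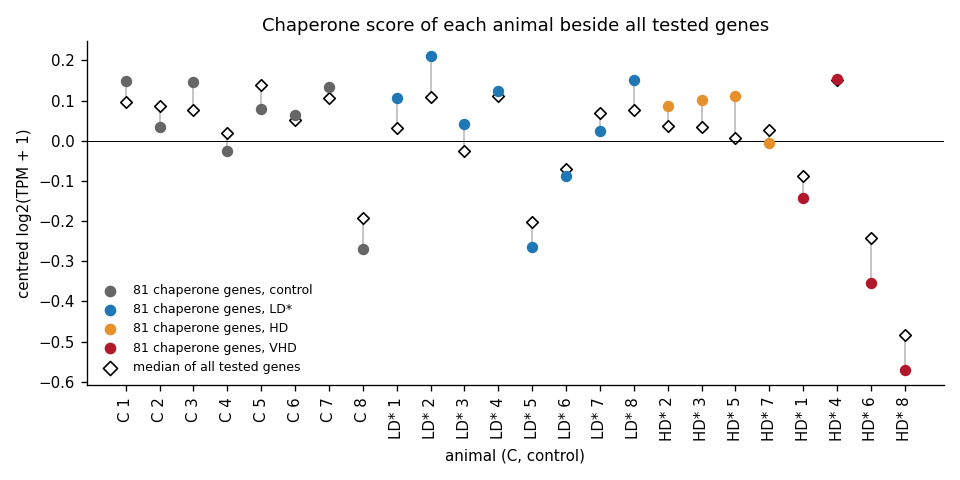
Chaperone score of each animal (filled circles, mean centred log2(TPM + 1) of 81 genes) beside the median of all tested genes on the same scale (diamonds), with animals in order of control, LD*, HD and VHD. HD* 8, HD* 6, control 8 and LD* 5 lie lowest in both measures.

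Defining markers of striatal neurons (10 genes, among them DRD1, DRD2 and PPP1R1B) were above 0 in every animal, as were those of oligodendrocytes, astrocytes and microglia. Control 6 stood apart, with a summed TPM of 822 for the striatal neuron markers against 2745 to 11665 in the other animals, and with the highest GFAP (6255 TPM) of all. The same animal had the highest value of all animals for 12 of the 81 genes (14.8%, against 17.8% of all tested genes), among them DNAJB1 (134 TPM), HSPB1 (331 TPM), HSPB8 (147 TPM), DNAJC12 (16.7 TPM), BAG3 (30.6 TPM), HSPA2 (91.7 TPM) and HSF1 (79.6 TPM). In a piece of tissue, fewer cells of a type and less RNA per cell cannot be told apart.

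The first question was whether chaperone genes differed between HD* animals and controls. No gene of the 81 passed an adjusted p of 0.05 in limma (Benjamini-Hochberg over all tested genes), as no gene did in the whole table (0.00% called). This absence of calls holds for limma on log2(TPM + 1). The study, with DESeq2 on counts, reported genes past an FDR of 0.05 in this comparison and in HD* against LD*. That model could not be run on TPM. At an unadjusted p under 0.05, no chaperone gene was higher (0.396% of all tested genes) and 2 of 81 were lower (5.29% of all tested genes), PPID and HSPA2. The median log2 difference was −0.11 over the chaperone genes and −0.12 over all tested genes, and 70 of the 81 genes had a lower mean in HD*. Cohort 7b held 3 controls and no HD* animal. In cohorts 5 and 7a only, with cohort as a covariate, 0 of the 81 genes had an unadjusted p under 0.05, a count not taken over all tested genes. There the medians were −0.09 and −0.09, with 68 genes lower. Without HD* 8 the medians were −0.04 and −0.06 with 55 genes lower, and the score difference of HD* from controls went from −0.12 to −0.05. Unadjusted calls numbered 8 without HD* 4, with medians of −0.15 over the 81 genes and −0.15 over all tested genes. They numbered 6 without control 8, with medians of −0.16 and −0.15. Such calls were not counted over all tested genes in these refits. With TMM scaling factors, which correct for a shift shared by most genes and moved the median of all genes from −0.12 to 0.00094, 33 of the 81 were lower and the median was 0.02, so the direction depended on the scaling. Unadjusted calls then numbered 2 higher and 1 lower among the 81, and 310 higher and 206 lower in the table in place of 54 and 721. All 10 striatal neuron markers had higher means in HD* (median log2 difference 0.42) and all 8 oligodendrocyte markers lower ones (−0.34), with none past the adjusted test. Control 6 lay outside the other controls in both lists, with summed levels of 822 TPM (striatal) and 9719 TPM (oligodendrocyte). The group medians of these sums were 6927 and 3433 TPM in controls and 7625 and 3343 TPM in HD* animals. The part of the markers in the chaperone differences was not tested beyond their use as covariates.

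PPID, or cyclophilin 40, is a co-chaperone of HSP90. It was added to the set by name with earlier results of these data known, so its values are a description. In controls it was 41.0, 41.4, 46.1, 39.8, 41.9, 47.9, 40.8 and 30.4 TPM, and in LD* animals 39.5, 45.3, 39.7, 49.6, 33.4, 36.0, 40.7 and 44.7 TPM. In HD* animals it was 33.4, 25.8, 41.4, 22.6, 46.7, 30.1, 18.8 and 23.3 TPM. Of the HD* animals, 2 HD animals (41.4 and 46.7 TPM) stayed at the level of the controls and 5 others lay below the lowest control, 3 of them VHD. The log2 difference was −0.48 (SE 0.14) both from controls and from LD* animals, with adjusted p = 0.706 and 0.937. Within HD*, PPID was 33.2 ± 13.0 TPM in HD and 27.4 ± 5.28 TPM in VHD animals.

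HSPA2, an HSP70 best known from testis, had 29.1 to 91.7 TPM in controls (median 47.2), 27.8 to 53.7 TPM in LD* (median 37.0) and 19.0 to 55.3 TPM in HD* animals (median 37.6). The groups overlapped, and the highest control was control 6. The log2 difference of HD* from controls was −0.47 (SE 0.22, adjusted p = 0.706). DNAJC13, an endosomal J-domain protein, came next by p at −0.30 (SE 0.15, adjusted p = 0.706), with 8.44 to 13.4 TPM in controls and 5.06 to 12.0 TPM in HD* animals.

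Neither the stress-inducible nor the constitutive chaperones passed the test in HD* against controls. HSPH1 was 84.6 to 397 TPM in controls (median 226), 120 to 404 TPM in LD* (median 267) and 84.1 to 374 TPM in HD* animals (median 215), so each group spanned most of the range. Its log2 difference of HD* from controls was −0.08, with a 95% interval from −0.79 to 0.63. For HSPA1A the difference was −0.01 (interval −0.40 to 0.38), for HSPA8 −0.10 (−0.44 to 0.23) and for HSP90AB1 −0.13 (−0.42 to 0.16). DNAJB1, the inducible J-domain partner of HSP70, differed by −0.12 (−0.38 to 0.14) and HSF1 by −0.12 (−0.28 to 0.05), so a difference of 1 log2 unit lay outside each of these intervals. HSPA5, the HSP70 of the ER, differed by −0.16 (−0.66 to 0.35), and HSPB1 by 0.18 (−0.20 to 0.55).

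LD* animals were compared with the same controls. No chaperone gene passed the adjusted test (0.00% of all tested genes), and at an unadjusted p under 0.05 none was higher (0.293% of all tested genes) or lower (2.54% of all tested genes). The median log2 difference was 0.01 over the 81 genes and −0.03 over all tested genes, with 47 of the 81 genes higher, but without control 8 only 18 were higher and 63 lower. With TMM scaling 64 were higher, and 2 of them had an unadjusted p under 0.05 (over all tested genes 160 higher and 224 lower, in place of 40 and 347). Without control 6 there were also 2 unadjusted calls, with medians of 0.02 over the 81 genes and −0.03 over all tested genes. The smallest p-values belonged to DNAJC4 (log2 difference 0.25, SE 0.13), HSPA6 (0.24, SE 0.13) and BAG3 (−0.33, SE 0.18), all with adjusted p = 1. BAG3, which links HSP70 to autophagy, was 10.0 to 30.6 TPM in controls (median 13.3) and 9.44 to 15.1 TPM in LD* animals (median 12.7), and the 3 highest controls (30.6, 24.1 and 20.01 TPM) were above every LD* animal.

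HD* and LD* animals were also compared directly. No chaperone gene passed the adjusted test (0.00% of all tested genes), none was higher at an unadjusted p under 0.05 (0.330% of all tested genes) and 1 was lower (0.748% of all tested genes), which was PPID, also with TMM scaling (over all tested genes 113 higher and 76 lower, in place of 45 and 102). Without HD* 4 the unadjusted calls numbered 5, with median log2 differences of −0.16 over the 81 genes and −0.12 over all tested genes. Such calls were not counted over all tested genes in this refit. The median log2 difference was −0.12 over the 81 genes and −0.08 over all tested genes, and without HD* 8 these were −0.06 and −0.03. The 2 groups share only cohort 7a (4 HD* and 3 LD* animals), where the medians were −0.25 and −0.20. Outside cohort 7a, group and cohort cannot be told apart in this comparison. HSPB2 (0.33, SE 0.17) and DNAJC6 (−0.40, SE 0.23) had the next smallest p-values, with adjusted p = 0.937. DNAJC6, or auxilin, which uncoats clathrin vesicles at the synapse, ranged from 54.8 to 135 TPM in controls, from 70.0 to 158 TPM in LD* and from 32.7 to 124 TPM in HD* animals. DNAJC5, the cysteine string protein of synaptic vesicles, was steady at 221 ± 22.7, 236 ± 26.9 and 221 ± 23.3 TPM in the 3 groups (SD, n = 8 each).

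**Figure D3:**
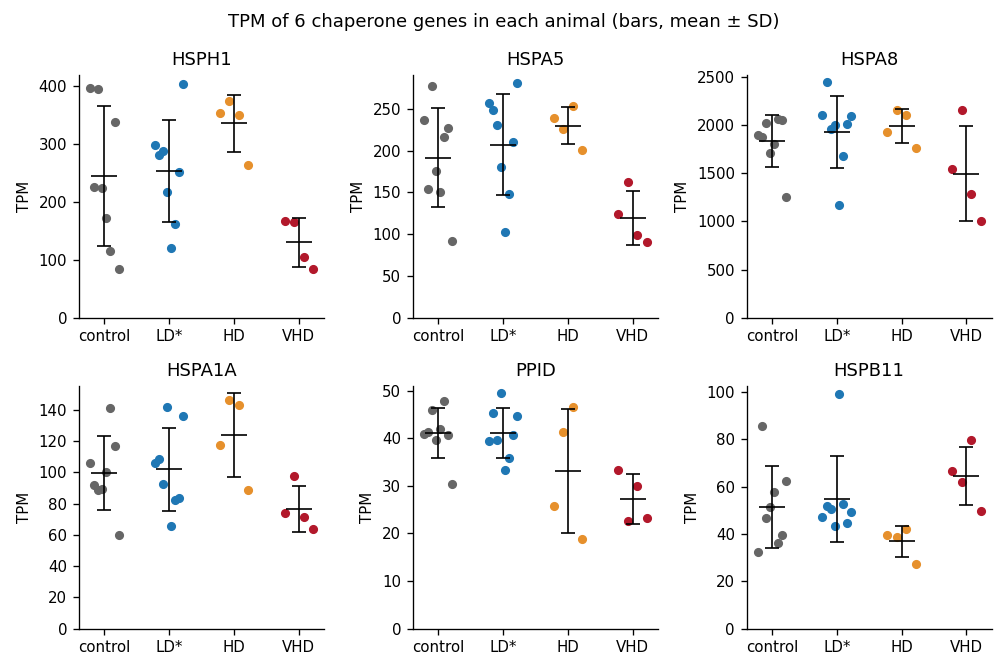
TPM of HSPH1, HSPA5, HSPA8, HSPA1A, PPID and HSPB11 in each animal (points) for controls, LD*, HD and VHD animals, with mean and SD as bars. For HSPH1 and HSPA5 the 4 VHD animals lie below the 4 HD animals, and the controls cover nearly the whole range of both.

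Within HD*, the drinking categories were compared next. HSPH1, HSPA5 and HSPA12A were lower in the 4 VHD than in the 4 HD animals and HSPB11 was higher. In limma fitted to these 8 animals, 11 of the 81 genes passed an adjusted p of 0.05 (13.6%), as did 14.6% of all tested genes, so the share of chaperone genes was near that of the table. At an unadjusted p under 0.05, 31 of 81 were lower in VHD (38.3%, against 24.6% of all tested genes) and 3 were higher (3.70%, against 8.08%). The median log2 difference was −0.38 over the 81 genes, of which 63 were lower, and −0.17 over all tested genes, and with TMM scaling −0.20 and −0.02. Without HD* 8 the medians were −0.22 and −0.07, and without HD* 6 and HD* 8 they were −0.08 and 0.01. The 11 genes comprised 1 higher (3.23% of all tested genes were) and 10 lower (11.4% of all tested genes), and with TMM scaling 5 were higher and 13 lower, against 441 and 1556 in the table as deposited and 1065 and 1583 with TMM scaling. All 11 kept their sign and 9 still passed.

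HSPH1 had the smallest p of the 81 genes. It was 354, 374, 350 and 264 TPM in the HD animals and 167, 166, 104 and 84.1 TPM in the VHD animals. The categories did not overlap, although the controls ran from 84.6 to 397 TPM. The log2 difference of VHD from HD was −1.41 (SE 0.22, adjusted p = 0.00489). It was −1.13 within cohort 5 and −1.69 within cohort 7a.

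The ER chaperones HSPA5 and HSP90B1 were lower in VHD animals as well. HSPA5, also called BiP, was 239, 226, 254 and 201 TPM in HD and 124, 163, 99.1 and 91.0 TPM in VHD animals, with no overlap (log2 difference −0.97, SE 0.18, adjusted p = 0.00765). HSP90B1 was 459, 436, 455 and 369 TPM in HD and 288, 362, 234 and 211 TPM in VHD animals, with the highest VHD animal just under the lowest HD animal (−0.68, SE 0.17, adjusted p = 0.0235). Of 8 genes listed as ER chaperones, these 2 fell and none rose, where 11.4% of all tested genes fell and 3.23% rose, and the median of the 8 was −0.49. DNAJB11 (−0.42), DNAJC3 (−0.64) and DNAJC10 (−0.53), ER partners of HSPA5, did not pass the adjusted test.

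In the HSP70 and HSP110 family 5 of 14 genes fell and none rose, beside the same 11.4% and 3.23% of all tested genes, and the median of the 14 was −0.52. Beside HSPH1 and HSPA5 these were HSPA12A, a distant relative of HSP70 (127, 121, 128 and 131 TPM in HD against 79.4, 85.3, 45.7 and 45.9 TPM in VHD animals), HSPA4 and HSPA1A. HSPA12A differed by −1.03 (SE 0.20, adjusted p = 0.0098) without overlap. HSPA4, another HSP110, differed by −0.82 (SE 0.24, adjusted p = 0.0405), with 93.1, 98.3, 104 and 86.3 TPM in HD and 66.3, 84.8, 42.4 and 33.9 TPM in VHD animals. HSPA1A was 117, 147, 144 and 88.5 TPM in HD and 73.8, 97.6, 71.2 and 64.0 TPM in VHD animals, and here 1 VHD animal exceeded the lowest HD animal (−0.68, SE 0.19, adjusted p = 0.0326). HSPA8, with 1930, 2162, 2103 and 1768 TPM in HD and 1545, 2159, 1285 and 1004 TPM in VHD animals, overlapped and did not pass (−0.46, SE 0.21, adjusted p = 0.142).

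Among J-domain proteins, DNAJA1 (−0.69, adjusted p = 0.0249), DNAJC14 (−0.66, adjusted p = 0.0328) and DNAJC16 (−1.09, adjusted p = 0.0189) fell. None of the 4 DNAJA, 10 DNAJB and 25 DNAJC genes tested rose. Over all tested genes 11.4% fell and 3.23% rose, so these counts do not set J-domain genes apart. DNAJC14 lies in the ER membrane and is known to bind the D1 dopamine receptor. DNAJC16 was 13.8, 13.0, 11.5 and 12.7 TPM in HD and 7.12, 8.60, 4.14 and 3.35 TPM in VHD animals, a pair of ranges that did not overlap. DNAJB1 differed by −0.31 and did not pass. BAG6, which guides membrane proteins with a tail anchor, was 167, 176, 172 and 174 TPM in HD and 133, 124, 106 and 124 TPM in VHD animals (−0.50, SE 0.12, adjusted p = 0.019), again without overlap.

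HSPB11 was the only one of the 11 genes that rose. It was 39.6, 38.9, 42.1 and 27.3 TPM in HD and 66.6, 62.1, 79.5 and 49.6 TPM in VHD animals, without overlap (log2 difference 0.78, SE 0.18, adjusted p = 0.0183). Despite its symbol it is better known as IFT25, a subunit of the transport complex of cilia. None of the TRiC subunits, mitochondrial chaperonins, HSF1 and HSF2 passed the adjusted test, with TCP1 at −0.52 (adjusted p = 0.0897), HSPD1 at −0.38 (adjusted p = 0.129) and CCT3 and HSPE1 near 0.

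**Figure D4:**
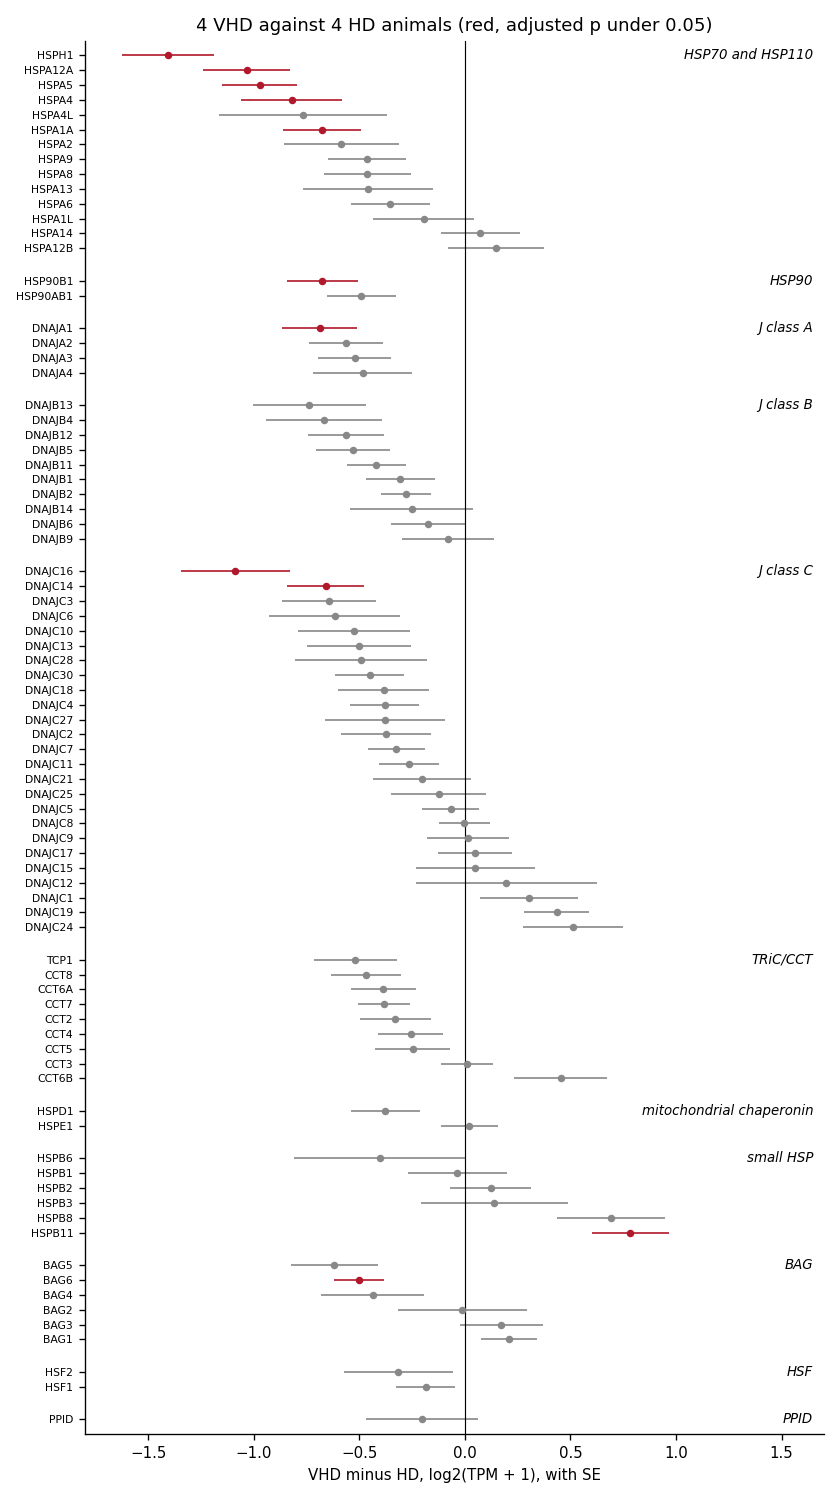
Log2 difference of VHD from HD animals (points) with its standard error (bars) for the 81 chaperone genes, ordered by family, with genes at an adjusted p under 0.05 in red. Most points lie left of 0, HSPH1 furthest at −1.41, and HSPB11 is the only red point on the right.

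Cell type markers moved with these differences. Of the 10 striatal neuron markers, 9 fell in VHD animals (PDE10A fell by 1.61 on the log2 scale), and their summed level was 9052 to 10654 TPM in HD and 3382 to 6198 TPM in VHD animals. Of 7 microglia markers 4 rose, with summed levels of 333 to 426 TPM in HD and 435 to 745 TPM in VHD animals, and of 7 astrocyte markers 1 rose, GFAP (summed levels 3254 to 4927 and 6002 to 8932 TPM). Of 8 oligodendrocyte markers 1 rose, MBP, but 5 had lower means in VHD animals without passing, and the median of the 8 was −0.19. Their summed levels overlapped (2471 to 4218 TPM in HD and 2398 to 5059 TPM in VHD animals). Of 6 vessel markers and 1 blood marker tested none passed. With scores of oligodendrocyte and striatal neuron markers as covariates, 0 genes of the table and 0 of the 81 passed, 2 of the 81 had an unadjusted p under 0.05, and the standard error of HSPH1 grew from 0.22 to 1.41. HD and VHD animals did not overlap in the striatal score, so markers and drinking category cannot be told apart in these 8 animals.

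With 4 animals a side, the calls differed in how firm they were. With all 24 animals in the fit, none of the 81 genes and no gene of the table passed (adjusted p = 0.0555 for HSPH1, 0.0557 for HSPA5 and 0.0572 for HSPA12A). There 40 of the 81 had an unadjusted p under 0.05, a count not taken over all tested genes. In the fit to 8 animals, HSPH1, HSPA5 and HSPA12A passed in each of 8 fits that left out 1 animal, with adjusted p up to 0.0263, 0.038 and 0.0421. They also passed without HD* 6 and HD* 8 (HSPH1 adjusted p = 0.0266). In HD* 6 and HD* 8 the 10 most abundant genes held 5.42% and 5.92% of the total, more than in the other VHD animals. The other 8 genes lost the call in at least 3 of the 8 fits, HSPA1A and HSPA4 in 6 of them. Within cohort 5 alone no chaperone gene passed (1 gene of the table did) and within cohort 7a alone 38 did (3714 in the table). The interaction of category with cohort passed for no gene (smallest adjusted p among the 81 genes, 0.247), with an unadjusted p under 0.05 for 23 of the 81 genes and for 2443 of all tested genes.

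Daily intake was next related to each gene within the 16 drinkers, with LD* or HD* as a covariate. No chaperone gene passed the adjusted test (0.00% of all tested genes). At an unadjusted p under 0.05 no gene had a positive slope (2.60% of all tested genes) and 8 of 81 had a negative one (9.88%, against 5.51% of all tested genes), which with TMM scaling became 2 and 7 (over all tested genes 647 and 640, in place of 355 and 752). The 8 unadjusted calls became 2 without LD* 5 and 19 without LD* 2. Median slopes over the 81 genes and over all tested genes were −0.18 and −0.08 without LD* 5. Without LD* 2 they were −0.31 and −0.13, and with all 16 drinkers −0.26 and −0.11. Unadjusted calls over all tested genes were not counted in these refits. The smallest p-values were those of ER chaperones. HSPA5 had a slope of −0.70 (SE 0.25; −1.15 without LD* 2), HSP90B1 of −0.50 (SE 0.20) and DNAJB11, a J-domain protein of the ER, of −0.36 (SE 0.13) log2 units per g/kg, each with adjusted p = 0.498. The other 5 were DNAJC7, DNAJA1, HSPA8, HSPH1 and DNAJB12. The 8 HD* animals of this fit are those of the comparison of VHD with HD, so the fits are not independent.

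Cohort was tested as well. In an F-test of cohort with group as a covariate, 0.00% of all tested genes and no chaperone gene passed the adjusted p, and 5 of 81 chaperone genes had an unadjusted p under 0.05 (8.36% of all tested genes). This count ran from 2 without control 1 to 15 without HD* 5, and the count over all tested genes was not taken in these refits. The 5 genes were HSPA13, an HSP70 of the ER, DNAJB14, BAG4, DNAJB9 and DNAJC25, all with adjusted p = 0.54. HSPA13 averaged 47.5 ± 0.66 TPM in the 2 animals of cohort 4, 51.4 ± 3.95 TPM in the 7 of cohort 5, 37.3 ± 11.6 TPM in the 9 of cohort 7a and 38.1 ± 11.2 TPM in the 6 of cohort 7b (SD). The ranges of cohorts 5, 7a and 7b overlapped. For HD* against controls, the interaction with cohorts 5 and 7a passed for no gene, with an unadjusted p under 0.05 for 294 of all tested genes and 1 chaperone gene, BAG3 (0.31 in cohort 5 and −0.57 in cohort 7a).

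Since HSPH1 varied over a 4.80-fold range, each other gene was fitted against its log2 level over the 24 animals. Of 80 genes, 51 rose at an adjusted p under 0.05 (63.8%, against 44.7% of all tested genes) and 7 fell (8.75%, against 14.1% of all tested genes). The median slope was 0.25 over these genes and 0.12 over all tested genes, in log2 units per log2 unit of HSPH1. With TMM scaling, 40 rose and 16 fell, against 4398 and 3747 of all tested genes, and all 58 genes kept their sign while 47 still passed.

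The 10 genes closest to HSPH1 by p were HSPA12A (slope 0.74, SE 0.05), DNAJA1 (0.52, SE 0.04), DNAJC16 (0.67, SE 0.06), DNAJA2 (0.42, SE 0.04), HSP90B1 (0.49, SE 0.05), DNAJC3 (0.51, SE 0.05), BAG5 (0.46, SE 0.04), HSPA5 (0.65, SE 0.07), HSPA4 (0.56, SE 0.06) and CCT8 (0.36, SE 0.04), with adjusted p from 3.46e-11 to 3.02e-08. HSPA12A, the closest of them, was at rank 49 by p among all tested genes. By family, 4 of 4 DNAJA, 9 of 10 DNAJB, 15 of 25 DNAJC, 9 of 13 HSP70 and HSP110, 2 of 2 HSP90, 7 of 9 TRiC, 3 of 6 BAG and 0 of 6 small HSP genes rose, and of the ER list 7 of 8. Over all tested genes 44.7% rose. With TMM scaling DNAJA4, DNAJB2, DNAJB6, DNAJB9, CCT4 and 6 DNAJC genes no longer passed.

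Of the 11 other genes listed as heat-inducible, 7 rose and 1 fell, beside 44.7% and 14.1% of all tested genes. HSPA1A rose with a slope of 0.34 (SE 0.08, adjusted p = 0.000861) and HSPA6 with 0.24 (SE 0.06, adjusted p = 0.00102), and the others were DNAJA1, HSPA8, HSP90AB1, HSPA4L and HSPD1. DNAJB1 had a slope of 0.10 (SE 0.07, adjusted p = 0.238), HSPB1 −0.16 (SE 0.10, adjusted p = 0.179), HSPE1 −0.07 (SE 0.05, adjusted p = 0.165) and HSF1 0.07 (SE 0.04, adjusted p = 0.154). HSPB8 fell by 0.59 (SE 0.14, adjusted p = 0.000682), BAG3, its partner in autophagy, by 0.27 (SE 0.09, adjusted p = 0.0142), and BAG1 by 0.21 (SE 0.05, adjusted p = 0.000525). HSPB11, HSPB2, DNAJC19 and DNAJC24 were the others that fell. HSPD1 rose (0.23, adjusted p = 0.000187) while its lid HSPE1 did not pass.

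**Figure D5:**
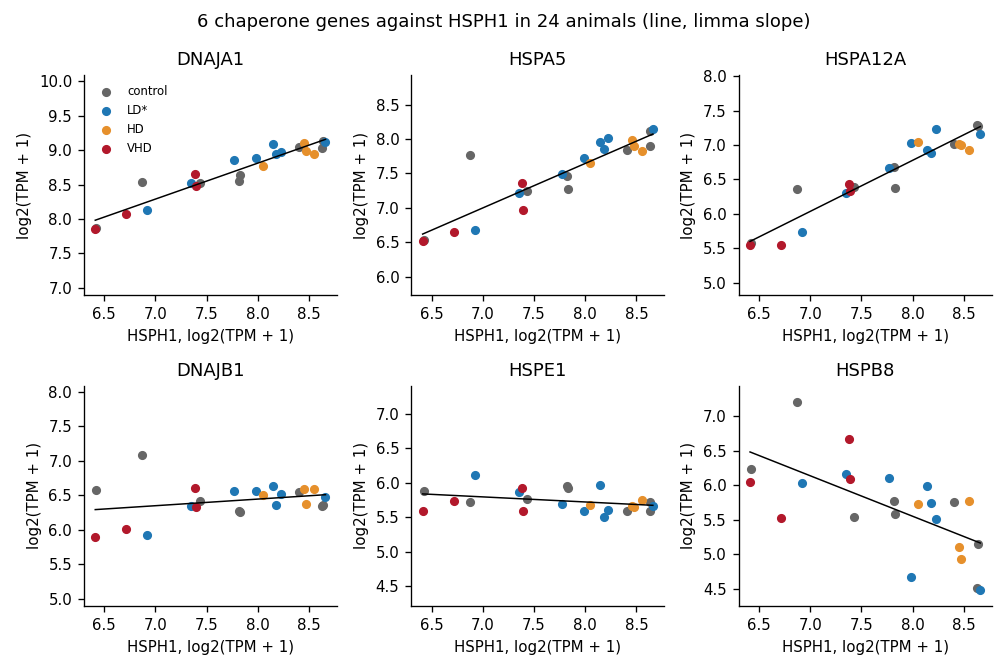
Log2(TPM + 1) of 6 chaperone genes against that of HSPH1 in the 24 animals (points coloured by category), with the limma slope as a line and a vertical axis of the same length in each panel. DNAJA1, HSPA5 and HSPA12A climb with HSPH1, DNAJB1 and HSPE1 stay nearly level, and HSPB8 descends.

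Striatal neuron markers rose with HSPH1 too, all 10 of them (PDE10A with a slope of 1.27, DRD1 of 1.10). At an adjusted p under 0.05, 4 of 7 microglia markers fell (among them AIF1, −0.70) and none rose. Of 7 astrocyte markers 3 fell (among them GFAP, −1.10) and none rose, while 2 had positive slopes that did not pass. Of 8 oligodendrocyte markers 1 fell, MBP, and of 6 vessel markers 2 rose. With the striatal neuron and oligodendrocyte scores as covariates, 61 of the 80 genes passed and the median slope was 0.40 (0.24 over all tested genes). Without the 5 animals in which the 10 most abundant genes held the largest shares, 37 genes passed instead of 58. In the main fit 44.7% of all tested genes rose and 14.1% fell, and their counts in these refits are not given here. Without the 5 animals the median slopes were 0.12 for chaperone genes and 0.01 for all tested genes. Without the 2 animals farthest from the median of HSPH1 (HD* 8 and control 8) they were 0.19 and 0.07.

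Partners of the chaperone machines outside the symbol rule were read from a list of 29 genes. In HD* against controls none passed the adjusted test, and ST13, which binds HSP70 (−0.26, SE 0.10), and TTC4 (−0.44, SE 0.18) were lower at an unadjusted p under 0.05 (6.90% of the list, against 5.29% of all tested genes). In VHD against HD animals 4 fell and 2 rose (20.7% of the list, against 14.6% of all tested genes). STIP1, the adaptor between HSP70 and HSP90, was 207, 243, 241 and 210 TPM in HD and 145, 187, 109 and 110 TPM in VHD animals, without overlap (−0.74, SE 0.17, adjusted p = 0.0186). The HSP90 co-chaperones CDC37 (−0.47) and FKBP4 (−0.59) and the adaptor SGTA (−0.43) also fell. PFDN5, a subunit of prefoldin, rose from 659, 575, 638 and 609 TPM in HD to 1026, 826, 1579 and 1672 TPM in VHD animals (0.98, SE 0.21, adjusted p = 0.0128), and so did HSBP1, a small protein that binds HSF1 (0.50, SE 0.14, adjusted p = 0.0317). With HSPH1, 15 of the 29 rose (51.7%, against 44.7% of all tested genes) and 7 fell (24.1%, against 14.1%).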

How the data were processed

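RNA of the NAcc core of 24 rhesus macaques was sequenced on an Illumina HiSeq from polyA-selected libraries. The authors aligned reads to the MacaM assembly with STAR 2.5.2b, keeping unique alignments, and counted genes with HTSeq 0.6.1p1. The deposited values are TPM, whose conversion from counts and gene lengths are not given in the sources used here, and columns sum to 999998 to 1000000. TPM keep no depth, so the depth of each animal is unknown, no counting error is given and count models could not be run. Strand and pairing are described differently by the labels and the methods text.

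TPM were transformed to log2(TPM + 1), which understates changes of low genes. Genes averaging 1 TPM or more (13637) were fitted with limma 3.58.1 (trended empirical Bayes, two-sided) in R 4.3.3, with Benjamini-Hochberg adjustment over all of them. The 3 comparisons among controls, LD* and HD* animals came from 1 model of 24 animals and share samples. VHD against HD used the 8 HD* animals, intake the 16 drinkers, cohort an F-test with group as covariate, and the HSPH1 fit all 24 animals. Each animal is 1 replicate. Scripts were tested on simulated data. Tables and plots used Python 3.11.15, pandas 2.3.3 and matplotlib 3.10.9.

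The genes and lists were chosen with earlier results of these data known. Named in the text are a list of main chaperones, the 3 of lowest p per fit, the 8 highest and 3 lowest in level, the 8 most and 4 least variable, genes that passed an adjusted p of 0.05 (10 at most) and the 10 closest to HSPH1; genes of a count that is spelled out, the other falling genes of the HSPH1 fit, the highest genes of control 6 and other listed genes were named after their values were seen. The partner and cell type lists were HSP70 and HSP90 co-chaperones and prefoldin (29 genes), and markers of striatal neurons, oligodendrocytes, astrocytes, microglia, vessels and blood. Of the 88 symbols, 84 were found in the RefSeq gene table and 80 in the Ensembl table. Spreadsheet dates replaced 27 symbols of the table. Alternatives were pseudocounts of 0.1 and 8, no filter and a filter of 10 TPM, TMM rescaling (trimming 30% of M and 5% of A), array weights, marker or cohort covariates, subsets of animals and cohorts, and each animal left out. Leaving out the 5 or 2 outlying animals, single cohorts, the score less the median of all genes and the interaction with cohort were chosen after seeing the data. P-values measure the spread between animals. No sequences were printed.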

Additional observations from a re-analysis of the deposited data

Results flagged for a closer look

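In groups of 8 animals, an animal was singled out where its gap to the nearest other animal, divided by the range of the group, exceeded the critical value of Dixon's test at the 95% level. Chance singles out about 1 in 20 groups, and 18 of 159 group values (11.3%) met the rule over 48 genes and 5 scores, which are related to each other.

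Control 6, which had the lowest striatal neuron markers, was high among controls in 5 genes. It had 134 TPM of DNAJB1 (others 75.5 to 94.4), 16.7 TPM of DNAJC12, a gene tied to aromatic amino acid hydroxylases (others 3.31 to 7.54), 79.6 TPM of HSF1 (others 60.2 to 68.4), 331 TPM of HSPB1 (others 128 to 189) and 147 TPM of HSPB8 (others 21.7 to 74.7). Control 8 was low in HSPA8 (1253 TPM, others 1709 to 2062), in PPID (30.4 TPM, others 39.8 to 47.9) and in the score of all 81 genes (−0.27, others −0.03 to 0.15).

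LD* 5 was high in HSPB11 (99.1 TPM, others 43.3 to 52.5) and low in DNAJA2 (67.0 TPM, others 92.7 to 110) and DNAJC14 (20.3 TPM, others 29.2 to 36.7). HD* 4 was high in BAG3 (18.0 TPM, others 10.3 to 13.7), DNAJC12 (14.1 TPM, others 2.15 to 5.82) and HSPE1 (59.5 TPM, others 47.2 to 53.1). Single cases were CCT3 in control 2 (299.9 TPM, others 241 to 268), DNAJB13, an axonemal J-domain protein, in LD* 3 (35.9 TPM, others 11.0 to 21.5), HSPB2 in LD* 6 (2.86 TPM, others 0.31 to 1.23) and the score of 6 mitochondrial genes in LD* 2 (0.22, others −0.06 to 0.06).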

How the results depend on the processing

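The absence of adjusted calls among the 81 genes in the 3 group comparisons, the intake fit and the cohort fit held under every alternative run. VHD against HD did not hold in this way. Its 11 chaperone calls (1997 in the table) became 18 with TMM rescaling (1065 higher and 1583 lower in the table). They became 18 with a filter of 10 TPM, which 69 of the 88 genes passed, and 21 with cohort as a covariate. For the filter and the cohort covariate, the counts over the table are not given here. With array weights the calls were 56 (7613), and with marker scores as covariates 0 (0), where HSPB11 turned to −0.086. With all 24 animals in the fit they were 0 (0) (HSPH1 adjusted p = 0.0555), in cohort 5 alone 0 (1) and in cohort 7a alone 38 (3714). They were 6 (606) without the 5 animals in which the 10 most abundant genes held the largest shares. Leaving out 1 animal gave 3 (without HD* 3) to 41 (without HD* 4) chaperone calls and 476 (without HD* 6) to 4651 (without HD* 4) in the table. With TMM rescaling, 9 of the 11 passed, BAG6 and HSPA1A not. In the intake fit, 0 to 1 genes of the table passed with 1 animal left out. The HSPH1 fit gave 37 chaperone calls instead of 58 without the 5 animals, and the count over all tested genes is not given here. The score difference of VHD from HD was −0.067 without the 5 animals, in place of −0.30. With each gene at unit SD, the score differences were −0.35 for HD* against controls, −0.38 for HD* against LD* and −0.88 for VHD against HD. These are in SD units, so their size cannot be set against the main values of −0.12, −0.12 and −0.30 in log2 units. The cause of the changes in the calls and in the score without the 5 animals was not tested. Single cohorts and the 5 animals were left out after seeing the data. No paired analysis was possible because animals in different groups share no number in the labels.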
